A study of Mus musculus with 9 samples.

Results

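Transcript levels of 35 genes for glutamate receptors, their auxiliary subunits and the scaffolds and kinases of the excitatory postsynapse were examined in mouse prefrontal cortex. They were matched by gene symbol from a fixed list of names, not by a cut on measured values, and are 35 of the 24532 genes listed for every mouse. By role they are 4 AMPA, 5 kainate and 6 NMDA receptor subunits, 1 delta receptor subunit, 6 metabotropic receptors, 6 auxiliary subunits and 7 scaffold or kinase genes. The study asked whether loss of Fkbp5, the gene for a co-chaperone of the glucocorticoid receptor, alters the response of mice to chronic restraint stress. RNA was sequenced from 9 male mice of strain C57BL/6 by the labels (C57BL/6J in the study's methods), 3 per group and 1 library per mouse. CT mice were wild type and unstressed, WT_ST mice were wild type and stressed, and KO_ST mice were Fkbp5-/- and stressed. Stressed mice were restrained daily for several weeks. The labels give an age of 11 weeks for all 9. The methods of the study give a younger age, without saying to which point of the experiment it applies. The knockout was constitutive, in all cell types and not only in cortex, and no unstressed knockout group was analysed here, so KO_ST differed from CT by both genotype and stress.

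Glutamate is the main excitatory transmitter of the cortex. AMPA receptors carry most of the fast current, kainate receptors modulate it on both sides of the synapse, NMDA receptors admit calcium and trigger plasticity, and metabotropic receptors act through G proteins. Auxiliary subunits such as the TARP proteins (Cacng genes) and cornichons (Cnih genes) govern how AMPA receptors are trafficked and gated. Beneath the membrane, Dlg4 (PSD-95), the Shank proteins and Homer hold receptors in place, and CaMKII, the kinase made from Camk2a and Camk2b, responds to calcium.

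Depth was 43778471 to 61150128 counted reads per mouse. All 35 genes averaged at least 30 reads, the minimum for testing, and 14370 genes did so in all. Fkbp5 lay at an FPKM (fragments counted on a gene, scaled for transcript length and depth) of 6.46 to 7.61 in CT, 9.47 to 10.25 in WT_ST and 3.60 to 4.69 in KO_ST. It was lowest in the mice labelled as knockout, with 625 or more reads still counted on it in each of them. Between KO_ST and WT_ST the log2 fold change was -1.04 (adjusted p = 0.00908, limma). In WT_ST against CT it was 0.44 (unadjusted p of 0.000387, adjusted p = 0.267, limma). Markers of excitatory neurons were present in every mouse, with a summed FPKM of 826 to 960 over 7 genes. Markers of other cell types were present as well, none of them at 0. In bulk RNA, fewer cells of a type and less RNA per cell cannot be told apart.

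Levels differed widely between these genes, and each gene kept nearly the same level from mouse to mouse. Camk2a was the highest, at a mean FPKM of 758 over the 9 mice, followed by Dlg4 at 282, Camk2b at 244 and Grin1, the obligatory NMDA receptor subunit, at 168. The lowest was Grin2b at 0.648. The highest mouse exceeded the lowest by less than 1.5-fold in 30 of the 35 genes, from 1.06-fold for Camk2b to 2.29-fold for Grin2a. The median SD between mice of a group was 0.10 on the log2(FPKM+1) scale, against 0.09 over all tested genes. The remaining 5 genes with a wider range were Grin2a, Grin2b, Grm5, Homer1 and Grin3a.

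**Figure D1:**
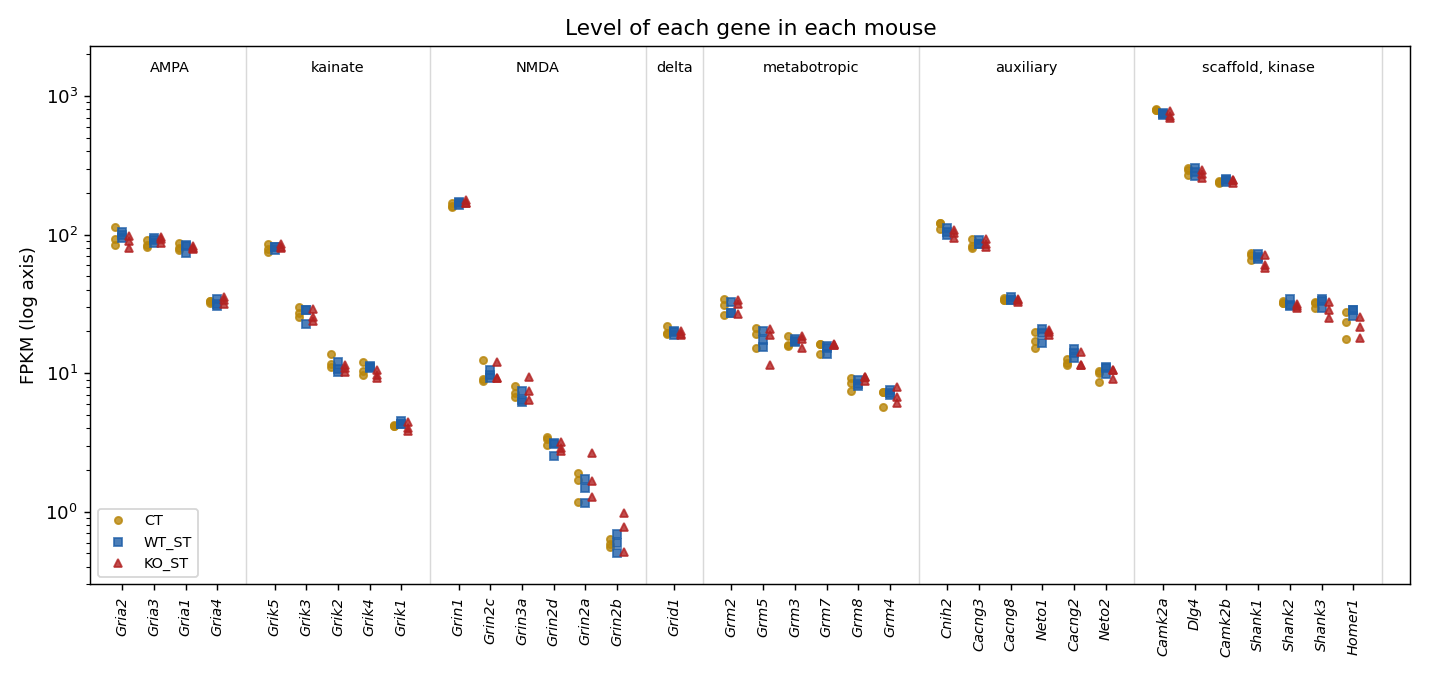
FPKM of each of the 35 genes in each of the 9 mice, on a log axis, grouped by role and ordered by mean level within a role. Each point is 1 mouse; the points of a gene lie close together compared with the differences between genes, which run from Grin2b, under an FPKM of 1, to Camk2a, near 800.

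Differences between groups were small for nearly all of these genes. A gene was called at an unadjusted p under 0.05 with a fold change over 1.2, the criterion used by the study, and p-values were also adjusted over all 14370 tested genes. In WT_ST against CT, 0 of the 35 genes were called by limma, edgeR or DESeq2, beside 2.47% of all tested genes by limma. At an unadjusted p under 0.05 there were 2 by limma, 3 by edgeR and 3 by DESeq2, against a background of 7.86% by limma. In KO_ST against CT, 0 were called by any of the 3 tools, beside 3.56% of tested genes by limma, and 2 by limma, 1 by edgeR and 1 by DESeq2 had a p under 0.05, beside 9.46%. In KO_ST against WT_ST, limma called 1 gene, Homer1, which was lower, beside 2.0% of tested genes; it was also the 1 gene with a p under 0.05 by limma, beside 5.82%, and the 1 by DESeq2, while edgeR had 2, Homer1 and Grik4. No gene of the 35 passed an adjusted p of 0.05 in any comparison, and the lowest adjusted p was 0.635, 0.499 and 0.801 in the same order (limma). The CT mice served in 2 of these comparisons, as did the WT_ST and the KO_ST mice, so the 3 comparisons are not independent of each other.

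The groups did not overlap, on the quantile-normalized scale, for 2 genes in WT_ST against CT (14.0% of tested genes), 1 in KO_ST against CT (15.8%) and 3 in KO_ST against WT_ST (11.0%). These shares of the 35 genes lie below or near those backgrounds. The median log2 fold change over the 35 genes was -0.0038, 0.0168 and -0.0133, where the median over all tested genes was 0.00338, 0.00243 and -0.00147. Higher and lower values were balanced, with 16, 19 and 15 genes above 0 in the same order. The precision of these estimates is given by their 95% intervals from limma. The interval lay wholly within a 1.2-fold change either way for 20 genes in WT_ST against CT, for 13 in KO_ST against CT and for 20 in KO_ST against WT_ST. The share of all tested genes with so narrow an interval was 57.3%, 52.7% and 63.3%. Within a 1.5-fold change lay 34, 33 and 33 genes. These fold changes are on the log2(FPKM+1) scale, which understates the change of low genes such as Grin2a and Grin2b, and with a pseudocount of 0.1 the intervals of 16, 12 and 17 genes lay within a 1.2-fold change. The genes not within a 1.5-fold change on the log2(FPKM+1) scale were Homer1 in WT_ST against CT, Grin2a and Grm5 in KO_ST against CT, and Grin2a and Homer1 in KO_ST against WT_ST. For these a difference over 1.5-fold cannot be set aside at this number of mice. For low genes this list may be too short, because the scale understates their change.

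**Figure D2:**
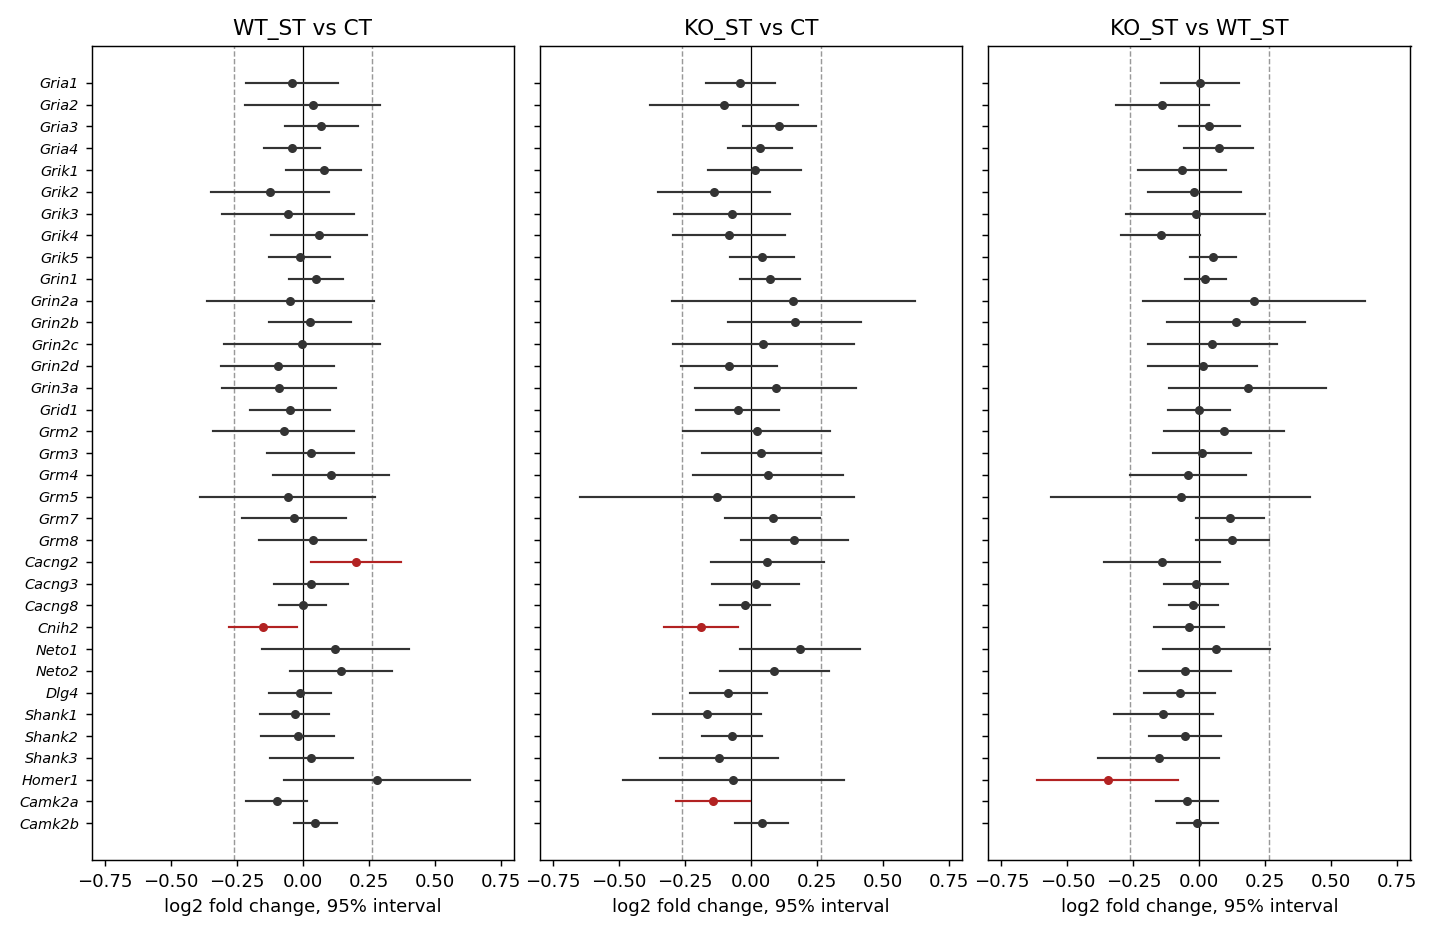
Log2 fold change of each of the 35 genes in the 3 comparisons, with its 95% interval from limma (3 mice per group); dashed lines mark a 1.2-fold change and red marks an unadjusted p under 0.05. Most intervals cross 0, and the red ones are Cacng2 and Cnih2 in WT_ST against CT, Cnih2 and Camk2a in KO_ST against CT, and Homer1 in KO_ST against WT_ST.

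Averaged by role, no class separated any pair of groups. The class mean of log2(FPKM+1) for the 4 AMPA subunits was 6.13 ± 0.08 in CT, 6.13 ± 0.03 in WT_ST and 6.13 ± 0.04 in KO_ST (SD, n = 3 mice). The widest gap between group means of a class was -0.12, for the 7 scaffold and kinase genes in KO_ST against WT_ST (6.56 ± 0.08 against 6.67 ± 0.05, SD, n = 3 mice), and the next was 0.10, for the 6 NMDA subunits in the same comparison (3.06 ± 0.08 against 2.96 ± 0.03). In both classes the KO_ST mice were spread more widely than the others, and 1 of them lay among the wild-type mice.

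**Figure D3:**
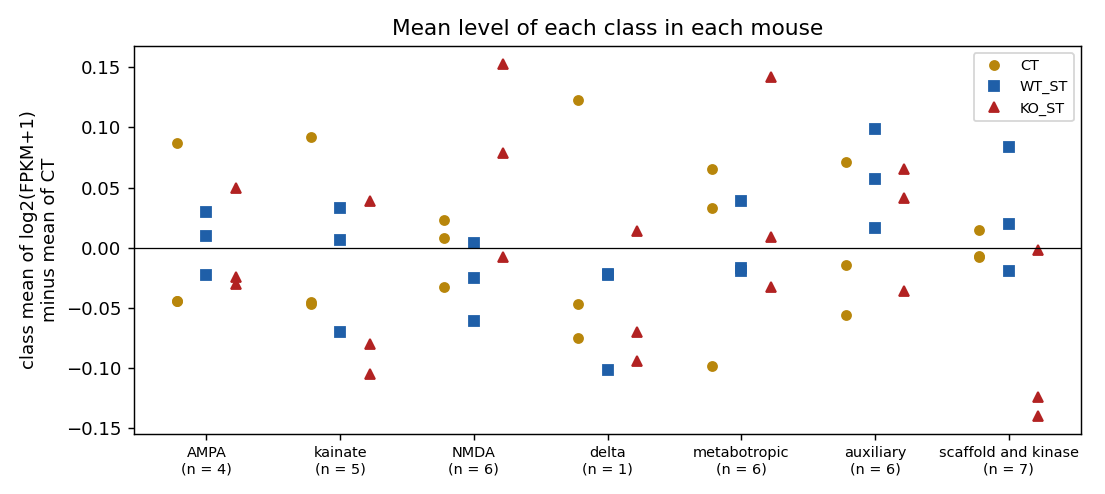
Mean of quantile-normalized log2(FPKM+1) over the genes of each class, per mouse, as the difference from the CT mean; n is the number of genes. The groups overlap in all 7 classes, and the KO_ST mice reach highest for NMDA subunits and lowest for scaffold and kinase genes.

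The AMPA subunits form the pore of the fast receptor, and Gria2 is the subunit that blocks calcium entry. Gria2 was the highest of the 4, with FPKM values of 114, 83.7 and 93.5 in CT, 98.6, 104 and 94.8 in WT_ST and 97.9, 90.5 and 80.7 in KO_ST. Both the highest and a low value came from CT mice, and all groups overlapped. Its log2 fold change was 0.04 in WT_ST against CT and -0.10 in KO_ST against CT, with an interval from -0.38 to 0.18 in the latter. Gria3 and Gria1 followed at a mean FPKM of 89.7 and 80.9, within the range of Gria2 in these mice, and Gria4 was lower, at 32.9. None of the 4 had a p under 0.05 in any comparison.

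Among kainate subunits, Grik5, which needs a partner subunit to form a channel, gave 56.9% to 64.2% of the summed FPKM of the family. Its FPKM was 74.8, 79.3 and 85.03 in CT, 81.4, 81.8 and 76.9 in WT_ST and 81.9, 80.4 and 85.1 in KO_ST, and every pair of groups overlapped. Its interval lay within a 1.2-fold change in all 3 comparisons. Grik1 was the other gene beside Cacng2 whose groups did not overlap in WT_ST against CT, but by a small margin: 4.13 to 4.24 in CT and 4.29 to 4.51 in WT_ST, log2 fold change 0.08. Grik4 did not overlap in KO_ST against WT_ST, at 9.18 to 10.6 and 11.0 to 11.2. In that comparison it was by edgeR the second gene with a p under 0.05 (adjusted p = 0.889). Its log2 fold change there was -0.15 with an unadjusted p of 0.0552 and an adjusted p of 0.852 (limma).

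For the NMDA receptor, Grin1, the subunit that every such receptor contains, lay at an FPKM of 169, 161 and 159.5 in CT, 172, 169 and 163 in WT_ST and 168.5, 178 and 170.4 in KO_ST. The groups overlapped, and the log2 fold change was 0.05, 0.07 and 0.02 in the 3 comparisons. Grin2a and Grin2b, whose products are the principal GluN2 partners of GluN1 in adult forebrain by textbook knowledge, were listed far below Grin2c: 1.16 to 2.65 and 0.506 to 0.985, against 8.75 to 12.4 for Grin2c and 2.53 to 3.44 for Grin2d. They rest on 264 to 562 and 192 to 347 reads per mouse, the fewest of the 35 genes. Each was quantified on 1 listed transcript, NM_008170 and NM_008171, and GENCODE annotates a longer transcript of each gene, of 14634 and 24060 bases, which is not among those listed and is 3.16 and 3.13 times the length that reads and FPKM imply. Whether reads on those longer transcripts went uncounted was not tested, so the levels of Grin2a and Grin2b relative to the other subunits are uncertain.

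On the log2(FPKM+1) scale, Grin2a and Grin3a showed the widest differences of this class in KO_ST against WT_ST. That scale understates Grin2b, whose mean FPKM was 0.758 ± 0.235 in KO_ST and 0.595 ± 0.090 in WT_ST (SD, n = 3 mice). For Grin2a the FPKM was 1.90, 1.69 and 1.17 in CT, 1.16, 1.49 and 1.73 in WT_ST and 1.66, 2.65 and 1.28 in KO_ST. A single KO_ST mouse, replicate 2, stood above all others, and the log2 fold change of 0.21 had an interval from -0.21 to 0.63 (adjusted p = 0.94, limma). On the read counts it was 0.37 by edgeR and by DESeq2, not past the test in either. Without that mouse it was 0.01, without replicate 1 of WT_ST 0.13, and without replicate 3 of KO_ST 0.37. Grin3a, a subunit that lowers calcium entry, lay at 7.19, 8.05 and 6.70 in CT, 6.36, 6.24 and 7.48 in WT_ST and 9.36, 7.44 and 6.42 in KO_ST. Here replicate 1 of KO_ST was highest, the groups overlapped, and the log2 fold change was 0.18 (interval -0.11 to 0.48, adjusted p = 0.938, limma). It was 0.06 without replicate 1 of KO_ST, and met the call criterion, at 0.30, when replicate 3 of KO_ST was left out. All 6 NMDA genes had a value above 0 in KO_ST against WT_ST, from 0.01 to 0.21, and none of the 6 passed the test.

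The single delta subunit among these genes, Grid1, a synapse organizer more than a channel, lay at an FPKM of 19.5, 22.1 and 19.2 in CT, 18.9, 19.9 and 20.0 in WT_ST and 19.1, 20.2 and 18.8 in KO_ST. Its largest log2 fold change was -0.05, and its interval stayed within a 1.2-fold change in all 3 comparisons.

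Metabotropic receptors were led by Grm2, a presynaptic autoreceptor, at 30.9, 34.4 and 26.4 in CT, 32.9, 27.0 and 27.3 in WT_ST and 26.9, 31.4 and 33.7 in KO_ST. Each group spanned nearly the same range. Grm5, the postsynaptic receptor coupled to calcium release that binds Homer, varied most: 15.2 to 21.2 in CT, 15.4 to 20.2 in WT_ST and 11.4 to 20.9 in KO_ST, so that its interval in KO_ST against CT, from -0.65 to 0.39, was the widest of the 35 genes. Grm7, another presynaptic receptor, did not overlap in KO_ST against WT_ST (15.9 to 16.2 against 13.8 to 15.8), with a log2 fold change of 0.12, an unadjusted p of 0.0725 and an adjusted p of 0.869 (limma). Grm4 is the 1 gene of the 35 on chromosome 17, 885 kb from the targeted gene Fkbp5, in a stretch that can keep the donor strain's sequence in a knockout line. In KO_ST against WT_ST it differed by -0.04 on the log2 scale (interval -0.26 to 0.18).

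Auxiliary subunits held both of the genes with an unadjusted p under 0.05 by limma in WT_ST against CT, in opposite directions, and edgeR and DESeq2 had Camk2a, a kinase gene, in addition. Cnih2, a cornichon that slows the closing of AMPA receptors (gene ID 12794, chr19:5092868-5098521), lay at an FPKM of 109, 121 and 121 in CT, 105, 111 and 100.2 in WT_ST and 109, 94.3 and 103 in KO_ST. All KO_ST mice were below all CT mice, the nearest pair being 108.6 and 109.3, while WT_ST overlapped CT by 1 mouse. The log2 fold change was -0.15 in WT_ST against CT (SE 0.0543, unadjusted p of 0.026, adjusted p = 0.635, limma) and -0.19 in KO_ST against CT (SE 0.0598, unadjusted p of 0.0151, adjusted p = 0.499, limma), below the 1.2-fold criterion in both. These 2 values share the CT mice. With 1 mouse left out the unadjusted p in WT_ST against CT reached 0.0844 (limma). In KO_ST against CT it ranged from 0.00924 to 0.0488 over all alternatives (limma, edgeR or DESeq2). The log2 fold change there was -0.231 to -0.145, under the 1.2-fold criterion throughout. Between the stressed groups the log2 fold change was -0.04, with an interval from -0.17 to 0.09.

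Cacng2, the gene for stargazin (gene ID 12300, chr15:77991919-78120220), was measured at 12.7, 11.9 and 11.4 in CT, 13.9, 14.9 and 12.8 in WT_ST and 11.5, 11.4 and 14.2 in KO_ST. All WT_ST mice lay above all CT mice, with 12.7 and 12.8 nearest to each other, whereas the KO_ST mice were divided, 2 at the CT level and 1 at the WT_ST level. The log2 fold change in WT_ST against CT was 0.20 (SE 0.0726, unadjusted p of 0.027, adjusted p = 0.635, limma), and 0.06 in KO_ST against CT. With 1 mouse left out the unadjusted p in WT_ST against CT reached 0.0961 (limma). Its relatives Cacng3 and Cacng8 stayed within a 1.2-fold change in every comparison by their intervals, Cacng8 within 32.6 to 35.6 over all 9 mice. Neto1, which accompanies kainate and NMDA receptors, lay at 19.9, 15.1 and 17.1 in CT, 16.4, 19.7 and 20.7 in WT_ST and 20.3, 19.7 and 18.8 in KO_ST. Its KO_ST mice overlapped the CT mice through replicate 1 of CT, and the log2 fold change of 0.19 (interval -0.04 to 0.41, adjusted p = 0.577, limma) became 0.29, past the call criterion, without that mouse and 0.10 without replicate 2 of CT.

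Scaffold and kinase genes held the called gene. Homer1, whose long products link Grm5 to Shank and whose short activity-induced product competes with them (gene ID 26556, chr13:93303757-93405129), lay at an FPKM of 27.8, 17.5 and 23.5 in CT. It was 28.7, 28.7 and 25.7 in WT_ST and 25.5, 17.9 and 21.5 in KO_ST. All WT_ST mice were above all KO_ST mice, but the nearest pair was 25.7 and 25.5, and the CT mice covered nearly the whole range of both. Homer1 fell by 0.35 on the log2 scale in KO_ST against WT_ST (SE 0.114, unadjusted p of 0.0181, adjusted p = 0.801, limma), with an interval from -0.62 to -0.08. On the read counts edgeR and DESeq2 called the same gene alone of the 35, with smaller log2 fold changes of -0.29 and -0.286. With all 9 mice in one fit it was no longer called, at an unadjusted p of 0.0563. It was also no longer called without replicate 2 of WT_ST (log2 fold change -0.32, unadjusted p of 0.0569, limma) or without replicate 2 of KO_ST (-0.23, under the 1.2-fold criterion). Against CT its log2 fold change was 0.28 in WT_ST (interval -0.07 to 0.63) and -0.07 in KO_ST (interval -0.48 to 0.35). The first of these met the call criterion without replicate 1 of CT, at 0.43, and was 0.11 without replicate 2 of CT. The second was 0.08 without replicate 1 of CT, 0.05 without replicate 2 of KO_ST, -0.24 without replicate 2 of CT and -0.19 without replicate 1 of KO_ST. The summed FPKM of 8 other neuronal activity genes overlapped between groups, at 102 to 178 in CT, 106 to 148 in WT_ST and 116 to 141 in KO_ST, and the 8 were divided in KO_ST against WT_ST, with 5 values above 0 and 3 below. Nr4a1 was called higher there by limma, at 0.39, beside 2.0% of all tested genes, while Egr2, Fosb and Egr1, at -0.35, -0.26 and -0.23, were not called. By edgeR 1 was called higher there and by DESeq2 1 higher and 2 lower, and in KO_ST against CT 1 was called lower by each of these and 0 by limma.

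**Figure D4:**
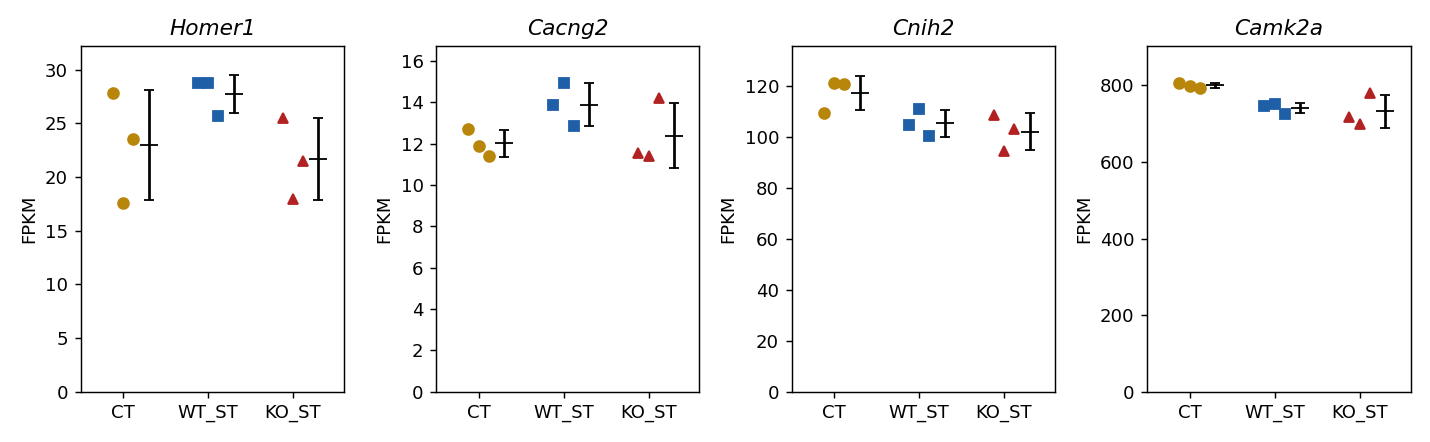
FPKM of Homer1, Cacng2, Cnih2 and Camk2a, the 4 genes with an unadjusted p under 0.05 by limma in any comparison, per mouse (points) with the mean and SD of each group of 3 mice (bars). The groups for Homer1 nearly touch, at 25.5 in KO_ST and 25.7 in WT_ST, and the CT mice of Homer1 range from 17.5 to 27.8.

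The sequences upstream of these genes are shown because Homer1 is induced by neuronal activity through CREB, a factor that binds the cyclic AMP response element, and because glucocorticoid receptors, which Fkbp5 restrains, bind their own elements. The 250 bases before each start were taken from RefSeq (GRCm38.p6), which gave 29 starts for 22 of the 35 genes. Capitals mark TGACGT, the core of the cyclic AMP response element, in Homer1 start 1 (chr13:93303507-93303756, plus strand), and AGAACA, a glucocorticoid receptor half-site, or its reverse complement TGTTCT in Homer1 start 2 (chr13:93307784-93308033, plus strand) and Cnih2 (chr19:5098522-5098771, minus strand). Both motifs were searched on both strands, and Cacng2 (chr15:78119281-78119530, minus strand) held neither. The windows of Cacng2 and of Homer1 start 2 lie inside the gene spans given above. They are upstream of the start used but not of the whole span.
Homer1 start 1: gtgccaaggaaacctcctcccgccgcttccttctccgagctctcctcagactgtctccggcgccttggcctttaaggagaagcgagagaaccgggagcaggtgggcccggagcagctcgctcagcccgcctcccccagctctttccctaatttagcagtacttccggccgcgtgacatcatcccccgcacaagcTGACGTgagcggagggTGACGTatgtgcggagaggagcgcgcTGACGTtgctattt
Homer1 start 2: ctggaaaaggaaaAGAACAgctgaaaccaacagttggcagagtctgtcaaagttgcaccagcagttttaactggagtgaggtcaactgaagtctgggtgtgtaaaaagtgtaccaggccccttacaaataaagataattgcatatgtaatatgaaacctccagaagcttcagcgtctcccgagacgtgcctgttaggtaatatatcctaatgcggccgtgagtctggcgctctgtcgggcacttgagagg
Cnih2: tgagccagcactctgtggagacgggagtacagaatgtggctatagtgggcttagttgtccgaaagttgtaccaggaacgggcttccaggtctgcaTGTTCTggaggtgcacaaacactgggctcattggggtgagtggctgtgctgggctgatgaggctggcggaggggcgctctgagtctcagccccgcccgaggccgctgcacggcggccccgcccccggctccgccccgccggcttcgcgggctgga
Cacng2: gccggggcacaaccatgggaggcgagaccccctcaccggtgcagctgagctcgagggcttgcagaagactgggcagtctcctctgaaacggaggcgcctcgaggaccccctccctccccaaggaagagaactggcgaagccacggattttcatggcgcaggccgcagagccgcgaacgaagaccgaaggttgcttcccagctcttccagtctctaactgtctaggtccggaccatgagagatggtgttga
Homer1 start 1 held TGACGT 3 times, at 56, 40 and 14 bases before the start. Among 32851 mouse promoters, 6.47% held at least 1 copy and 0.152% at least 3, and no other of these 22 genes held any. The full palindrome TGACGTCA, which contains TGACGT, was in 1.55% of all promoters and in 0 of these 29. AGAACA was in 16.1% of all promoters and, of these genes, in Cnih2, Grm8 and Homer1. A match describes letters in this window and says nothing of binding in these mice.

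Camk2a, the alpha subunit of CaMKII and the highest of all 35 genes (gene ID 12322), lay at an FPKM of 806, 799 and 794 in CT, 745, 750.3 and 726 in WT_ST and 716, 699 and 781 in KO_ST. In FPKM all stressed mice were below all CT mice, while on the quantile-normalized scale the groups overlapped. The log2 fold change was -0.10 in WT_ST against CT (interval -0.22 to 0.02) and -0.14 in KO_ST against CT (SE 0.0596, unadjusted p of 0.0453, adjusted p = 0.522, limma). The unadjusted p in KO_ST against CT was 0.0612 by edgeR, 0.0775 by DESeq2 and 0.0598 by limma without quantile normalization, and in WT_ST against CT it was 0.0838 by limma, 0.0458 by limma without quantile normalization, 0.0442 by edgeR and 0.0212 by DESeq2. The value in WT_ST against CT was -0.07 without replicate 1 of WT_ST. Camk2b, the beta subunit, stayed at 237 to 251 over all 9 mice. Camk2a thus made up 76.9% ± 0.323 of the summed FPKM of both genes in CT, 75.0% ± 0.168 in WT_ST and 74.9% ± 0.801 in KO_ST (SD, n = 3 mice). Each CT mouse, at 76.7% to 77.3%, was above each stressed mouse, at 74.2% to 75.8%. An exact permutation test gave p = 0.1 for each stressed group against CT (two-sided), the smallest p that 3 mice against 3 allow, and this pair was singled out after its values were seen, among 30 shares within 7 families, the GluN2 genes being counted also as a family of their own. The groups did not overlap for 2 of the 30 shares in WT_ST against CT, 5 in KO_ST against CT and 1 in KO_ST against WT_ST. The shares of Camk2a and Camk2b sum to 100% and are 1 observation, counted as 2 here in each comparison with CT. The others were Gria3, Grin2d within GluN2 and Grm8 in KO_ST against CT, and Grik4 in KO_ST against WT_ST.

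The Shank genes, which tie the receptor complexes to actin, had values below 0 in KO_ST against CT and against WT_ST without passing the test. Shank1 was the highest of them, at 65.5, 74.2 and 71.3 in CT, 69.2, 72.5 and 66.5 in WT_ST and 57.1, 60.3 and 71.0 in KO_ST. In KO_ST 2 mice were the lowest of the 9 and the third lay among the CT mice. Against CT, the log2 fold change in KO_ST was -0.17 (interval -0.37 to 0.04, adjusted p = 0.577, limma), and it was -0.10 without replicate 1 of KO_ST and -0.26 without replicate 3 of KO_ST. The 3 Shank genes kept their proportions, with Shank1 at 50.4% to 52.8% of their summed FPKM in every mouse. Dlg4, the main scaffold of the postsynaptic density, was at 258 to 302, with log2 fold changes of -0.01, -0.09 and -0.07 in WT_ST against CT, KO_ST against CT and KO_ST against WT_ST. All 7 scaffold and kinase genes had a value below 0 in the last of these, from -0.35 to -0.01, and Homer1 alone passed the test.

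A wider list of 50 further genes of the excitatory postsynapse gave a like picture. Of these 49 were tested, Grin3b having 1 to 11 reads per mouse. In WT_ST against CT and in KO_ST against CT 0 were called by limma, edgeR or DESeq2, beside 2.47% and 3.56% of all tested genes by limma. At an unadjusted p under 0.05 there were 2 and 5 by limma (7.86% and 9.46% of all tested genes), 1 and 6 by edgeR and 1 and 6 by DESeq2. In KO_ST against WT_ST limma called 1 (2.0% of all tested genes), edgeR 2 and DESeq2 1, and at an unadjusted p under 0.05 there were 2, 3 and 3 (5.82% of all tested genes by limma). The gene called by limma was Arc, an activity-induced gene whose product removes AMPA receptors from the synapse. Arc lay at an FPKM of 34.9, 10.02 and 13.8 in CT, 18.7, 18.1 and 15.1 in WT_ST and 23.0, 51.7 and 31.6 in KO_ST. All KO_ST mice were above all WT_ST mice, and 1 CT mouse was above 2 KO_ST mice. Its log2 fold change was 0.94 (SE 0.263, unadjusted p of 0.00889, adjusted p = 0.701, limma), opposite in sign to that of Homer1. The median log2 fold change of the 49 genes was -0.019, -0.0154 and -0.00167 in the 3 comparisons.

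Cell-type markers moved with the groups beside these results, where limma called 2.47% of all tested genes in WT_ST against CT, 3.56% in KO_ST against CT and 2.0% in KO_ST against WT_ST. Of 6 microglial markers 5 were called lower in WT_ST against CT and 5 in KO_ST against CT by limma. In the same order edgeR called 5 and 5 of them, and DESeq2 5 and 3. Their summed FPKM was 97.0 to 125 in CT, 78.5 to 84.8 in WT_ST and 43.2 to 87.9 in KO_ST. Markers of striatal projection neurons, which a dissection of prefrontal cortex can include, were called higher in WT_ST against CT for 3 of 7 and lower in KO_ST against WT_ST for 2 of 7, with a summed FPKM of 58.6 to 86.3 in CT, 76.9 to 100 in WT_ST and 67.2 to 87.2 in KO_ST. Of 6 astrocyte markers 2 were called lower in WT_ST against CT and 0 in KO_ST against CT, with sums of 446 to 508 in CT, 407 to 426 in WT_ST and 415 to 472 in KO_ST. Of 4 endothelial markers 1 was called lower in each stressed group against CT, while at an unadjusted p under 0.05 there were 2 lower and 1 higher in each (52.9 to 56.6 in CT, 50.0 to 56.9 in WT_ST and 47.4 to 55.7 in KO_ST). Of 6 inhibitory neuron markers 1 was called higher in KO_ST against CT and 0 in WT_ST against CT by limma, and 4 and 2 had an unadjusted p under 0.05, all of them higher (391 to 484 in CT, 429 to 463 in WT_ST and 460 to 478 in KO_ST). No marker of oligodendrocytes or their precursors was called by limma, edgeR or DESeq2 in any comparison, with 1 precursor marker at an unadjusted p under 0.05 by each tool in WT_ST against CT. Of 7 striatal markers 1 was also called higher in KO_ST against CT, and 1 microglial marker lower in KO_ST against WT_ST. Of 7 excitatory neuron markers only Bcl11b was called against CT, higher in each stressed group (log2 fold change 0.48 in WT_ST and 0.39 in KO_ST, limma). The sum of the 7 was 826 to 886 in CT, 869 to 960 in WT_ST and 865 to 931 in KO_ST. The part of these markers in the values of the 35 genes was not tested.

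Reads and FPKM together carry a further readout, the average length of the transcripts to which the reads of a gene were assigned, which moves when the mixture of transcripts moves. For the 17 genes listed with 1 transcript it varied by at most 1.01-fold between mice. Of the 18 with several transcripts, 4 stood out from the rest: Gria2 (1.22-fold), Homer1 (1.10-fold), Gria3 and Gria4 (1.06-fold each). Gria2 ranged from 5283 to 6421 bases, and its transcripts pair with GENCODE models of 10371 and 4026 bases. The group means were 5875 ± 517 in CT, 5829 ± 526 in WT_ST and 5754 ± 535 in KO_ST (SD, n = 3 mice), so mice of 1 group differed more than groups did. For Homer1 the mean was 5138 ± 87.9 in CT, 4929 ± 166 in WT_ST and 5138 ± 62.4 in KO_ST, the shortest value being 4740 bases in replicate 2 of WT_ST, and the CT mice overlapped both stressed groups. The WT_ST mice, at 4740 to 5052 bases, did not overlap the KO_ST mice, at 5066 to 5175, by a margin much smaller than the range within either group. In the other genes with several transcripts it varied by at most 1.015-fold (Shank2, 6153 to 6246 bases).

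**Figure D5:**
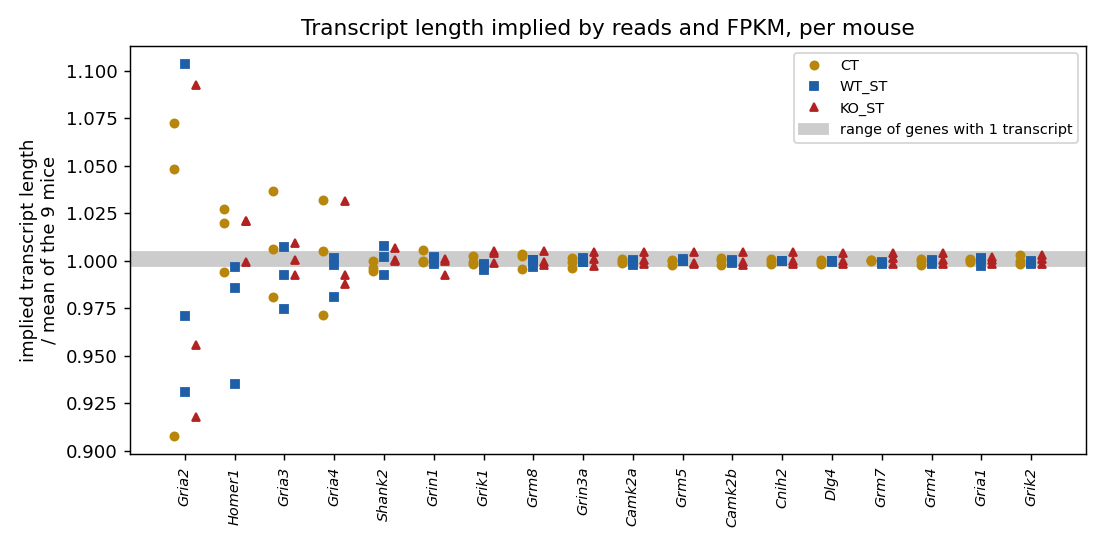
Transcript length implied by reads and FPKM for the 18 genes listed with several transcripts, per mouse, divided by the mean over the 9 mice; the grey band is the range of the 17 genes listed with 1 transcript. Gria2 spreads widely in all 3 groups, Homer1, Gria3 and Gria4 less so, and the rest lie near the band.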

How the data were processed

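RNA from prefrontal cortex of 9 mice (CT, WT_ST and KO_ST, 3 each, groups from the labels) was sequenced after poly(A) selection with a stranded kit. By the study's methods and the submitters' processing notes, reads were aligned to GRCm38 (mm10) with HISAT2 2.1.0, which uses Bowtie2 2.3.4.1, and quantified with StringTie 1.3.4d. For each gene and mouse the authors deposited read counts, without normalization, and FPKM, scaled for transcript length and mapped reads. The read counter and its strand setting are not given in the sources used here. As in the study, log2(FPKM+1) was quantile normalized and genes were called on p and fold change. Each pair of groups was tested on its own mice with limma 3.58.1 in R 4.3.3, with Benjamini-Hochberg adjustment, where the study used Student's test. Genes with a mean under 30 reads were left out before testing, leaving 14370, whereas the study removed low genes from its lists after testing. Alternatives used edgeR 4.0.16 (quasi-likelihood) and DESeq2 1.42.0 on the counts, other filters, and each mouse left out. The scripts were tested on simulated data.

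The members, gene lists and tests were chosen with earlier results of these data known. Per-mouse values are given for genes with an unadjusted p under 0.05, the 3 largest fold changes per comparison and the highest gene of each class. Any other gene was picked after its values had been seen. Class means, shares and implied lengths are descriptions from FPKM and counts (implied length is reads divided by FPKM and total reads). Positions come from RefSeq (GRCm38.p6) and transcript lengths from GENCODE M21. Figures were drawn with matplotlib 3.10.9.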

Additional observations from a re-analysis of the deposited data

How the results depend on the processing

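Homer1 in KO_ST against WT_ST, the 1 called result among 13 log2 fold changes of named genes, lost its call in 3 of 16 alternatives. The number of the 35 genes called stayed at 0 in WT_ST against CT, 0 in KO_ST against CT and 1 in KO_ST against WT_ST without quantile normalization, with a pseudocount of 0.1, with no filter or a mean FPKM of at least 1, and with edgeR or DESeq2 on the counts. With all 9 mice in one fit it was 0 in KO_ST against WT_ST. With 1 mouse left out it ranged from 0 to 1, 0 to 1 and 0 to 2, and the median log2 fold change of the 35 genes from -0.014 to 0.0267, -0.0309 to 0.0203 and -0.0315 to 0.00381. The log2 fold change of Homer1 in KO_ST against CT then ranged from -0.239 to 0.0795 and changed sign without replicate 1 of CT (0.0795) or replicate 2 of KO_ST (0.0497). Without replicate 3 of KO_ST the genes with an unadjusted p under 0.05 numbered 5 in KO_ST against CT and 7 in KO_ST against WT_ST, where all mice gave 2 and 1 (limma). In WT_ST against CT they fell from 2 to 0 without replicate 2 of CT or replicate 1 of WT_ST, and to 1 without replicate 3 of CT or replicate 2 or 3 of WT_ST. In KO_ST against WT_ST there were 0 without replicate 2 of WT_ST.

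Whether the replicate numbers in the labels pair the mice could not be settled at 3 mice a group. Deviations of same-numbered mice from their group means correlated at -0.259 to 0.234, and those of differently numbered mice at -0.266 to 0.19. Of the mice, 0 correlated best with their own number in both other groups, although the single highest correlation of 4 mice was with their own number. With the replicate block, 0, 0 and 1 of the 35 genes were called. With 3 mice a group, the interval reached past a 1.2-fold change for 15, 22 and 15 of the 35 genes.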
